A study of Rattus norvegicus with 3 samples.

Results

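The aquaporins are membrane channels that let water, and in some members glycerol and other small solutes, cross the cell membrane. Their transcripts were followed in kidneys of hypertensive rats given a peptide mixture made from blue mussel protein. The 8 genes Aqp1, Aqp2, Aqp3, Aqp4, Aqp6, Aqp7, Aqp8 and Aqp11 were taken by name, through the gene name or accession of each probe. They are 8 of 18313 named genes on the array, with 10 probes on 28 spots. Of the 8, 7 stood above background on every array, and the exception was Aqp8.

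All animals were male spontaneously hypertensive rats, a strain of Wistar background that develops high blood pressure, labelled as 8 to 10 weeks old and 280 to 330 g. The control group drank water, the low-dose group received the protein hydrolysate of blue mussel (HBMP) at 10 mg/kg/day, and the high-dose group received it at 20 mg/kg/day, each by mouth for 4 weeks. The doses are written 10 mg and 20 mg from here on where values are listed. Each group held 10 rats, and kidney RNA of 4 of them was pooled, labelled with Cy3 and put on 1 array. No array of a normotensive strain was used here, so every group carries the hypertensive background.

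With 1 array per group no test was possible, and every value describes 3 pools. The intensities were scaled to a common 75th percentile and are called scaled intensities. They compare 1 probe between arrays, not different probes with each other. Differences are on the log2 scale, and a gene counted as 2-fold different where its probe was above background on both arrays (at least 50% of its spots with signal over noise of 3 or above) and the difference was 1 or more. Between 50.9% and 55.0% of 30130 probes were above background. The scanner file of the high-dose array names a mouse design in its header, but all 45220 spots carry the annotation of the control array, and its log2 values correlated with those of the control array at 0.989 across 14554 probes. Markers of the labelled tissue were present: 23 of 24 proximal tubule genes, 11 of 11 thick ascending limb genes and 12 of 12 principal cell genes were above background on all 3 arrays. In pooled whole tissue, fewer cells of a type and less RNA per cell cannot be told apart.

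Along the nephron the family divides by segment. AQP1 sits in both membranes of the proximal tubule and thin descending limb, and also in the descending vasa recta and red blood cells. In the collecting duct, vasopressin acts through its V2 receptor and cyclic AMP to move AQP2 into the apical membrane of principal cells, and water leaves across the basolateral membrane through AQP3 and AQP4. AQP6 is held in vesicles of intercalated cells, AQP7 carries water and glycerol in the last part of the proximal tubule and glycerol in fat cells, and AQP11 lies in intracellular membranes of the proximal tubule.

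The promoters of the collecting duct channels are shown because these 3 genes stood together above control, with that of Aqp1, which did not, for comparison. The sequences are from RefSeq on GRCr8, each being the 250 bases before the annotated start, 5′ to 3′ on the gene's strand. RefSeq promoters were matched for 7 of the 8 genes. Capitals mark matches on either strand to 8 motifs. Those linked to signalling are TGACG, the short core of the cyclic AMP response element, which lies within its palindrome TGACGTCA, and TGANTCA, bound by AP-1. GATA factors bind AGATAA, and the core of the tonicity element reads TGGAAA. The boxes of core promoters searched were the TATA box, with the letters TATAAA, and the GC box, with GGGCGG. The last was the direct repeat bound by nuclear receptor pairs.
Aqp2, chr7:132590036-132590285, plus strand: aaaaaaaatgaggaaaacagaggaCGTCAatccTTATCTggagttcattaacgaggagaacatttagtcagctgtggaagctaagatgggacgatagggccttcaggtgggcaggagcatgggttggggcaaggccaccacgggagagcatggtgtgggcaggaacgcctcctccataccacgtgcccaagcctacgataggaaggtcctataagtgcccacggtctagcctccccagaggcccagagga
Aqp3, chr5:61040684-61040933, minus strand: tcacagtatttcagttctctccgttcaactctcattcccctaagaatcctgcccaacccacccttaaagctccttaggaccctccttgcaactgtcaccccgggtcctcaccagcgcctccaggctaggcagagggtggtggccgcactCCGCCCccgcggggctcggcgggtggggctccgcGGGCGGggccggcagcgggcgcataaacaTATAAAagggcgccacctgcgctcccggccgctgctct
Aqp4, chr18:6798843-6799092, minus strand: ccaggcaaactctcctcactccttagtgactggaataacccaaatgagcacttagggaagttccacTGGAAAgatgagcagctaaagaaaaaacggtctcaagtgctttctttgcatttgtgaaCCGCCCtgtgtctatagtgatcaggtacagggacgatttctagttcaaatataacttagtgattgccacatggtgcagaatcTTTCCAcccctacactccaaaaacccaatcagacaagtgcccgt
Aqp1, chr4:85812534-85812783, plus strand: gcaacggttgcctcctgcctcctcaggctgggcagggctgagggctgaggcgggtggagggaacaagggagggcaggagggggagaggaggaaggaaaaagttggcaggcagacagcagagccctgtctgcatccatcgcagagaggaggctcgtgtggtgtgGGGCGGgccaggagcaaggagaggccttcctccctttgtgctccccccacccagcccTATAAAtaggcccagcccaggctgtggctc

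The Aqp2 window holds 1 cyclic AMP core, read on the minus strand at 226 to 222 bases before the start, and 1 GATA core at 217 to 212. That core occurs in 18.2% and a GATA core in 10.3% of 33469 rat promoter windows of this length. The Aqp3 window holds a TATA box at 38 to 33 bases before the start and 2 GC boxes, and the Aqp1 window a TATA box at 30 to 25 and 1 GC box. TATA boxes occur in 12.9% of windows and GC boxes in 30.5%. The first start of Aqp4 has 2 tonicity element cores, at 184 to 179 and 44 to 39 bases before it, and 1 GC box at 126 to 121, and its second annotated start has 1 tonicity element core. The tonicity element core occurs in 19.7% of windows. None of the 8 motifs was found in all 3 collecting duct windows, and TGACG was found in 1 of the 3. These matches describe letters and are not shown to be binding sites.

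The principal cell channels were the only aquaporins that stood above control at both doses. Aqp2, the vasopressin-regulated apical channel, was 2.53-fold higher at the low dose, and Aqp3 and Aqp4, the basolateral exit channels, were 1.80-fold and 1.78-fold higher. At the high dose the 3 genes were 1.52-fold, 1.51-fold and 1.53-fold higher. Of the 7 aquaporins measured on both arrays, 1 was at least 2-fold higher at the low dose and none at least 2-fold lower, against 2.49% and 0.703% of the 9964 genes that both arrays measured above background. At the high dose none passed in either direction, against 0.82% higher and 0.168% lower of 10125 genes. The 2 comparisons share their control array.

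The Aqp2 probe had a scaled intensity of 12236 with water, 30915 at 10 mg and 18641 at 20 mg. The order was low dose, high dose, control, and each step was wider than the technical spread of a single spot. The log2 difference from control was 1.34 at the low dose and 0.61 at the high dose. Aqp2 is printed on 1 spot, so its error was read from probes of like brightness printed 10 times: the SD of a single spot's difference was 0.20 for low dose against control and 0.18 for high dose against control. No pixel of the Aqp2 spot was saturated on any array. Among named genes above background on both arrays, 1.28% lay higher than Aqp2 at the low dose and 3.14% at the high dose. The high-dose array lay 0.73 below the low-dose array (SD of a single spot's difference 0.12). Between the doses no aquaporin passed 2-fold in either direction, against 0.454% of 10363 genes higher and 1.55% lower at the high dose.

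Other processing left these counts of aquaporins as they were. With normexp background correction 1.36% of genes passed upward and 0.251% downward at the low dose, and 0.365% and 0.0395% at the high dose. With the authors' deposited table the shares were 2.68% and 0.622%, and 0.998% and 0.316%. Between the doses they were 0.174% upward and 0.685% downward with normexp, and 0.473% and 1.80% with the authors' deposited table. Spots around Aqp2 were also higher than control on average, and removing the local shift, of 0.15 at the low dose and 0.12 at the high dose, left differences of 1.18 and 0.49.

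**Figure D1:**
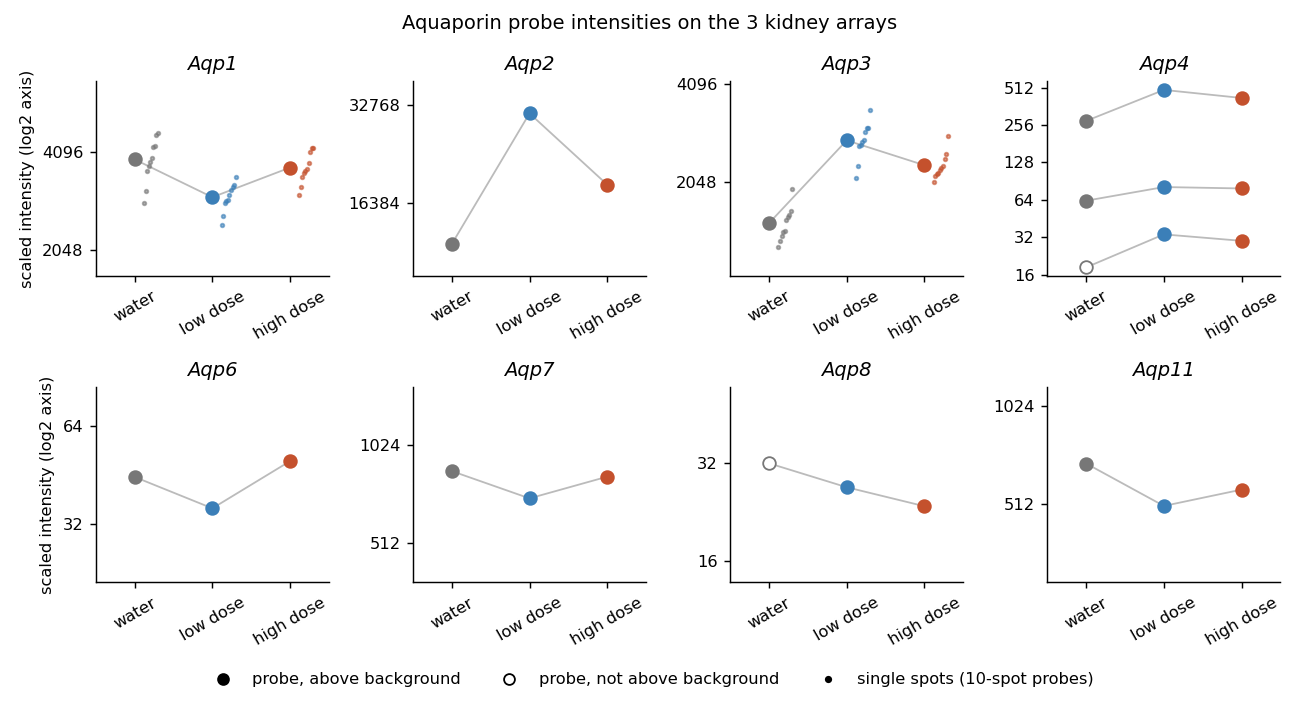
Scaled intensity (log2 axis, its range set per panel) of every probe of the 8 aquaporins on the water, low-dose and high-dose arrays, 1 pool each. Large points are probes, filled where above background, and small points are the 10 single spots of the Aqp1 and Aqp3 probes. Aqp2 is at 12236 with water, 30915 at 10 mg and 18641 at 20 mg.

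Aqp3, which passes water and glycerol across the basolateral membrane, is printed on 10 spots, as Aqp1 is. Its spots ranged from 1289 to 1948 with water (median 1499), 2099 to 3403 at 10 mg (median 2739) and 2051 to 2843 at 20 mg (median 2242). Neither treated array overlapped the control array in any spot. Taken spot by spot at the same position, the log2 difference was 0.85 ± 0.19 at the low dose and 0.60 ± 0.14 at the high dose (SD between 10 spots), and all 10 spots were above control at each dose. Between the doses it was -0.25 ± 0.18, with 8 of 10 spots lower at the high dose and the ranges overlapping, and in the authors' deposited table it was -0.10. These spots share 1 pool of RNA per array, so the SD is technical and holds nothing of the spread between animals.

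Aqp4, the other basolateral exit channel of principal cells, is covered by 3 probes of 1 spot each. The brightest had a scaled intensity of 276 with water, 490 at 10 mg and 422 at 20 mg, a log2 difference of 0.83 at the low dose and 0.62 at the high dose. The SD of a single spot's difference at this brightness was 0.16 and 0.15. A dimmer probe read 62.9 with water, 81.0 at 10 mg and 78.9 at 20 mg, with smaller differences of 0.36 and 0.33 and an SD of 0.20 for each. The dimmest read 18.3, 33.7 and 29.9 in the same order of groups and was not above background on the control array. All 3 probes were lowest with water and highest at the low dose, while the doses differed by less than the spread of a spot in 2 of the 3.

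The channels of the proximal tubule and thin limb did not share this direction. Aqp1 was 0.765 of control at the low dose and 0.944 at the high dose. Its 10 spots ranged from 2870 to 4719 with water (median 3886), 2453 to 3442 at 10 mg (median 2976) and 3020 to 4230 at 20 mg (median 3615). The ranges overlapped. Compared at the same position, all 10 spots were lower than control at the low dose (log2 difference -0.38 ± 0.10, SD between spots) and 8 of 10 at the high dose (-0.08 ± 0.09). All 10 were higher at the high dose than at the low dose, by 0.30 ± 0.04. Of the genes above background on both arrays 14.2% lay lower than Aqp1 at the low dose and 46.2% at the high dose.

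Aqp7 and Aqp11, each on 1 spot, were lowest at the low dose, as Aqp1 was. Aqp7, the glycerol-permeable channel of the proximal straight tubule, read 853 with water, 703 at 10 mg and 820 at 20 mg. Its log2 difference was -0.28 at the low dose (SD of a single spot's difference 0.14) and -0.06 at the high dose (SD 0.13), the last being within that spread and turning to 0.01 with quantile normalization and 0.02 in the authors' deposited table. Aqp11, whose loss in mice gives cystic kidneys, read 681 with water, 504 at 10 mg and 566 at 20 mg. Its differences of -0.43 and -0.27 exceeded the SD of a single spot's difference of 0.15 and 0.14. Of the genes above background on both arrays 10.9% lay lower than Aqp11 at the low dose and 23.8% at the high dose.

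Aqp6 and Aqp8 were dim. Aqp6, the vesicle channel of intercalated cells, read 44.6 with water, 35.7 at 10 mg and 49.9 at 20 mg. Its differences from control, -0.32 and 0.16, compare with an SD of a single spot's difference of 0.24 and 0.23, so the high dose did not differ from control beyond that spread, and the low dose lay 0.48 under the high dose (SD 0.18). The high-dose difference turned to -0.06 under normexp and in the authors' deposited table and to -0.03 with median pixels, and the gap between the doses was 0.15 under normexp. Aqp8, a channel of intracellular membranes that also passes ammonia, read 32.0 with water, 27.0 at 10 mg and 23.6 at 20 mg, and was not well above background on the control array. No fold was taken for it against control, and between the doses its log2 difference of -0.20 compares with an SD of a single spot's difference of 0.26. It was -0.33 with quantile normalization, -0.37 with median pixels, -0.51 in the authors' deposited table and -0.07 under normexp. The SD was taken from the scaled net means and not from these settings.

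**Figure D2:**
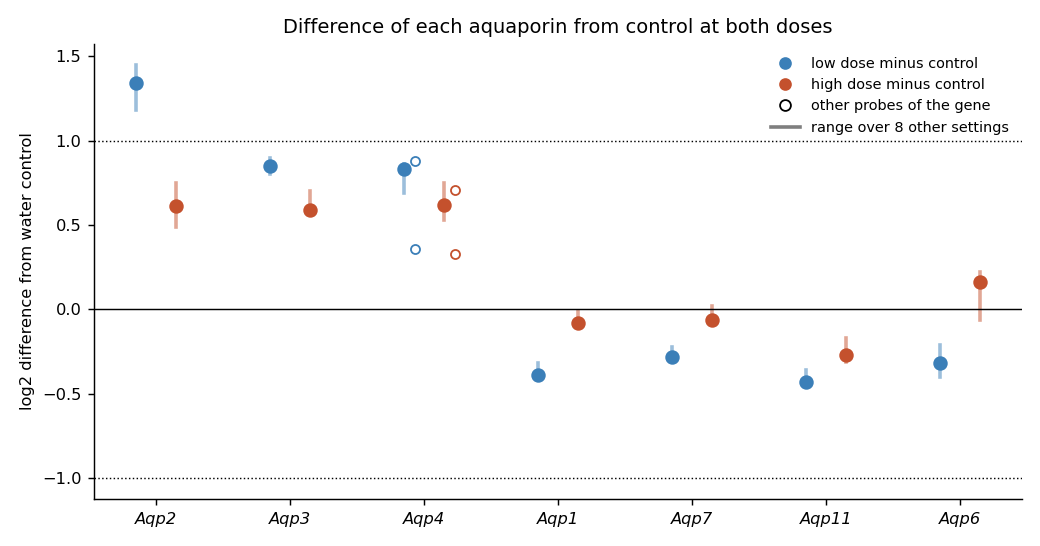
Log2 difference from the water control for the 7 aquaporins above background on all arrays, at the low and the high dose. Filled points are the representative probe, open points the other Aqp4 probes, vertical bars the range over 8 other settings, and dotted lines mark 2-fold. Aqp2, Aqp3 and Aqp4 lie above 0 at both doses, while Aqp1 and Aqp11 lie below it.

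Other aquaporins of the array were at the limit of detection. Mip, the lens channel also called aquaporin 0, read 29.8 with water, 29.9 at 10 mg and 38.1 at 20 mg, and was not well above background with water. Aqp5, the channel of salivary and lacrimal glands, Aqp9, the glycerol channel of liver, Aqp10 and Aqp12a were not well above background on any array, with scaled intensities between 0.00 and 19.5.

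At the low dose, neighbouring aquaporin genes lay on different sides of control. In the RefSeq annotation of GRCr8, Aqp2, Aqp5 and Aqp6 are neighbours on chromosome 7, and Aqp7 and Aqp3 are neighbours on chromosome 5. Within the first cluster Aqp2 was 1.34 above control at the low dose, Aqp6 was 0.32 below it (log2 difference -0.32) and Aqp5 was not well above background. In the pair, Aqp3 stood 0.85 above control at the low dose, and the Aqp7 difference was -0.28. At the high dose Aqp2 (0.61) and Aqp6 (0.16) both lay above control, with Aqp3 at 0.59 and Aqp7 at -0.06, and the signs of Aqp6 and Aqp7 turned between settings. The files name no genome build, so only the order of genes was taken from the annotation.

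**Figure D3:**
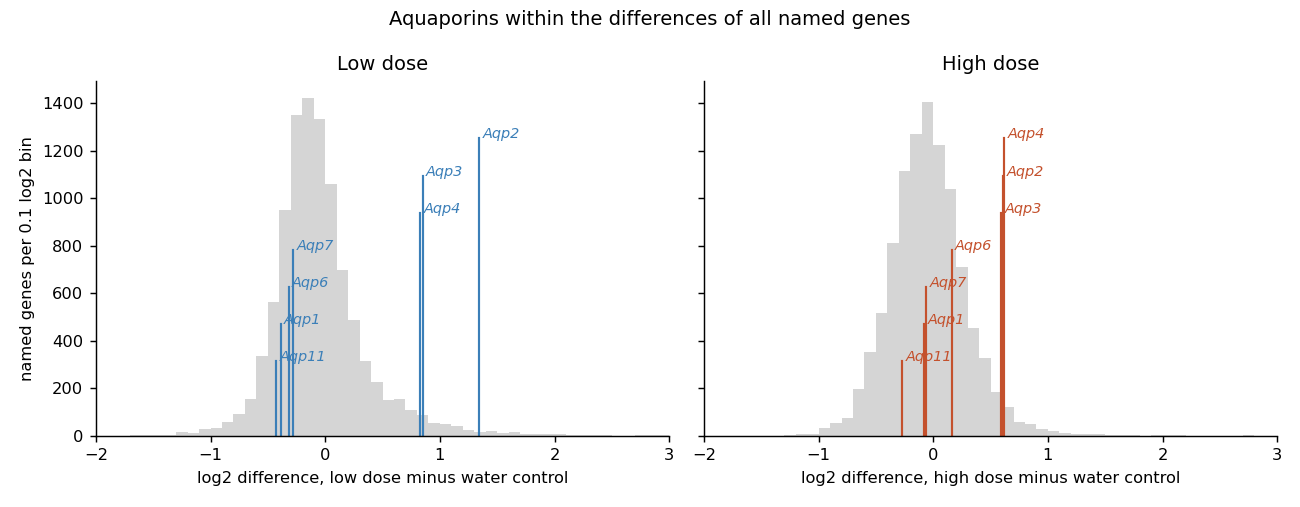
Number of genes measured above background on both arrays per 0.1 bin of log2 difference from control at the low dose (9964 genes) and the high dose (10125 genes), with vertical lines at each aquaporin above background. Aqp2, Aqp3 and Aqp4 lie in the upper tail at both doses, with 1.28% to 3.64% of genes higher, and the other 4 lie within the bulk.

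The lists of other genes below were chosen with earlier results of these data known, and are described by counts and medians over members above background on all arrays. For all 9872 such genes the median log2 difference from control was -0.10 at the low dose and -0.06 at the high dose. Over the 7 aquaporins it was -0.28 and 0.16.

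Other markers of collecting duct principal cells split in direction. With the aquaporins left out, the 12 measured markers had a median difference of -0.26 at 10 mg, 5 above and 7 below control, and of 0.06 at the high dose, 6 above and 6 below (-0.05 under normexp). Fxyd4, a regulator of the sodium pump in the collecting duct, read 1611 with water, 4089 at 10 mg and 3078 at 20 mg, log2 differences of 1.34 and 0.93. Elf5, a transcription factor of principal cells, was at 1.00 and 0.55 and Gata3 at 0.73 and -0.02, while Kcnj1, the potassium channel that they share with the thick limb, was at -0.67 and 0.14. The epithelial sodium channel subunits and Hsd11b2, the enzyme that shields the mineralocorticoid receptor from glucocorticoids, are named here after their values were seen. Scnn1a was at -0.40 and -0.08, Scnn1b at -0.25 and -0.12, Scnn1g at -0.27 and -0.37, and Hsd11b2 at -0.44 and -0.52. The summed intensity of the 12 markers was 13345 with water, 13205 at 10 mg and 13184 at 20 mg. Bright probes moved in opposite directions within this sum. Fxyd4 rose as given above, while Hsd11b2 read 5687 with water, 4187 at 10 mg and 3961 at 20 mg.

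The pathway that moves AQP2 to the membrane had a median close to that of all genes. Of 44 listed genes of vasopressin signalling and AQP2 trafficking, 34 were measured, with a median of -0.10 at the low dose and -0.05 at the high dose. Of these 34, 13 were above control and 21 below at the low dose, and 15 and 19 at the high dose. At the low dose 2 were at least 2-fold higher and none lower, and at the high dose none passed in either direction, against 2.49% higher and 0.703% lower of all genes measured at the low dose and 0.82% and 0.168% at the high dose. The first was Prkar2b, a regulatory subunit of the cyclic AMP-dependent kinase, printed on 10 spots, which read 71 with water, 187 at 10 mg and 128 at 20 mg. The second was Anxa2, annexin A2, a membrane-binding protein, at 1.14 and a high-dose value of 0.43. Mal, a raft protein that binds AQP2, was at 0.75 and 0.92. The receptor Avpr2 itself read 125 with water, 157 at 10 mg and 198 at 20 mg, log2 differences of 0.33 and 0.66. Its cyclase Adcy6 was not above background on any array. Below control at each dose were, among others, Cltc (-0.44 and -0.53) and Ezr (-0.38 and -0.36), named after their values were seen. Among 12 measured regulators of Aqp2 transcription the median was -0.04 at the low dose and -0.11 at the high dose. At the low dose 6 were above control and 6 below, and at the high dose 4 and 8. Of the 12, 0 passed 2-fold in either direction. Elf5 came nearest, its low-dose difference being just under 1 before rounding to 1.00. Jun stood at 0.53 and 0.59 and Elf3 at 0.56 and -0.14. Nr3c2 (-0.51 and -0.08) and Nr1h4 (-0.35 at each dose) lay below control and are named after their values were seen.

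Listed genes of the inner medulla, where urine is concentrated through these channels, varied in direction. At the low dose 5 of 6 measured thin limb markers were above control and 3 at least 2-fold higher, and at the high dose 4 of 6 and 3, against 2.49% and 0.82% of all genes measured on both arrays past 2-fold. Akr1b1, the aldose reductase that makes the osmolyte sorbitol, is printed on 10 spots and read 53 with water, 494 at 10 mg and 238 at 20 mg. Slc14a2, the urea transporter of the inner medullary collecting duct and thin limb, read 114, 370 and 363 in the same order of groups. Cldn4, a claudin of collecting duct and thin limb, was at 1.67 and 1.05, and Bst1 at 0.75 and 0.82. Cldn3, another claudin, was at 0.10 and -0.33 and Cryab at -0.36 and -0.08. The 6 measured thin limb markers had median differences of 1.21 (10 mg) and 0.94 (20 mg), although their summed intensity, 14427 with water, 12563 at 10 mg and 14177 at 20 mg, was led by Cryab, a small heat shock protein, at 13306, 10336 and 12567. Nfat5, the tonicity-responsive transcription factor, on 10 spots, was at 0.54 and 0.09, and the betaine carrier Slc6a12 at -0.33 and 0.74. Slc5a3, the inositol carrier, was at 0.51 and 0.07, Slc6a6, the taurine carrier, at 0.26 and -0.20, and Hspa4l, a heat shock protein, at 0.00 and -0.01. The 7 measured osmolyte and urea genes had medians of 0.51 and 0.09, with 5 above and 1 below control at the low dose and 5 above and 2 below at the high dose. Akr1b1 and Slc14a2 belong to both this list and the thin limb list, so the lists are not separate. The low-dose median of the osmolyte and urea genes was 0.00 once the local shift was removed. Cldn3, Cryab, Slc5a3, Slc6a6 and Hspa4l are named after their values were seen. The part that the share of medulla in each kidney pool plays in the aquaporin differences was not tested.

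Proximal tubule markers lay low at both doses, and at the low dose Aqp1, Aqp7 and Aqp11 did too. At the low dose 23 of 23 measured markers were below control (median -0.40), 4 of them at least 2-fold lower, and at the high dose 21 of 23 (median -0.45), none past 2-fold. Of all 9872 genes 6306 were below control at the low dose and 5700 at the high dose, and the share at least 2-fold lower was 0.703% and 0.168%. The 4 were Slc22a2 at -1.31, Slc7a13 at -1.29, Mep1b at -1.25 and Dpp4 at -1.08, carriers and brush border peptidases. The summed intensity was 259445 with water, 193108 at 10 mg and 190238 at 20 mg. At the high dose Aqp1, Aqp7 and Aqp11, at -0.08, -0.06 and -0.27, all lay above the marker median of -0.45. The 11 thick ascending limb markers had medians of -0.47 and 0.09 and summed to 75754 with water, 54494 at 10 mg and 67143 at 20 mg. Among them Slc12a1, the sodium, potassium and chloride cotransporter, read 5084 with water, 2704 at 10 mg and 5330 at 20 mg. The 10 measured intercalated cell markers had a median of -0.33 and -0.11, with 10 of 10 below control at the low dose, where Aqp6 was also below it.

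Cells other than the tubule that hold aquaporins gave the following values. The 6 measured erythroid genes, of cells that carry AQP1, had median differences of 0.18 (10 mg) and 0.20 (20 mg), with a summed intensity of 46531 with water, 53515 at 10 mg and 54651 at 20 mg. These medians depended on the setting, from 0.08 with no filter on dim probes to 0.44 with the mean over probes at the low dose, and from 0.02 to 0.51 under the same settings at the high dose. The 7 measured endothelial genes had a median of -0.01 and 0.02, with sums of 8243, 9627 and 8044. Of the erythroid list Hba-a3 and Epb42 were not above background on any array. Fat cells carry AQP7, and 8 of 13 adipocyte genes on the array were measured, with a median of 2.25 at the low dose and 1.25 at the high dose. At each dose 5 of the 8 were at least 2-fold higher, against 2.49% of all genes measured at the low dose and 0.82% at the high dose. Their summed intensity was 1442 with water, 8668 at 10 mg and 4209 at 20 mg. It was led by Ucp1, Fabp4, Adipoq and Cidea on the treated arrays and by Cidea, Pnpla2 and Lpl with water. The measured genes under 2-fold at both doses were Cidec (0.48 and 0.75), Lpl (0.34 and 0.92) and Pnpla2 (0.69 and -0.23). Plin1 and Lep were not above background on any array. Aqp7 did not share the upward direction of the list medians, at -0.28 and -0.06. The part of these cells in the aquaporin values was not tested.

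**Figure D4:**
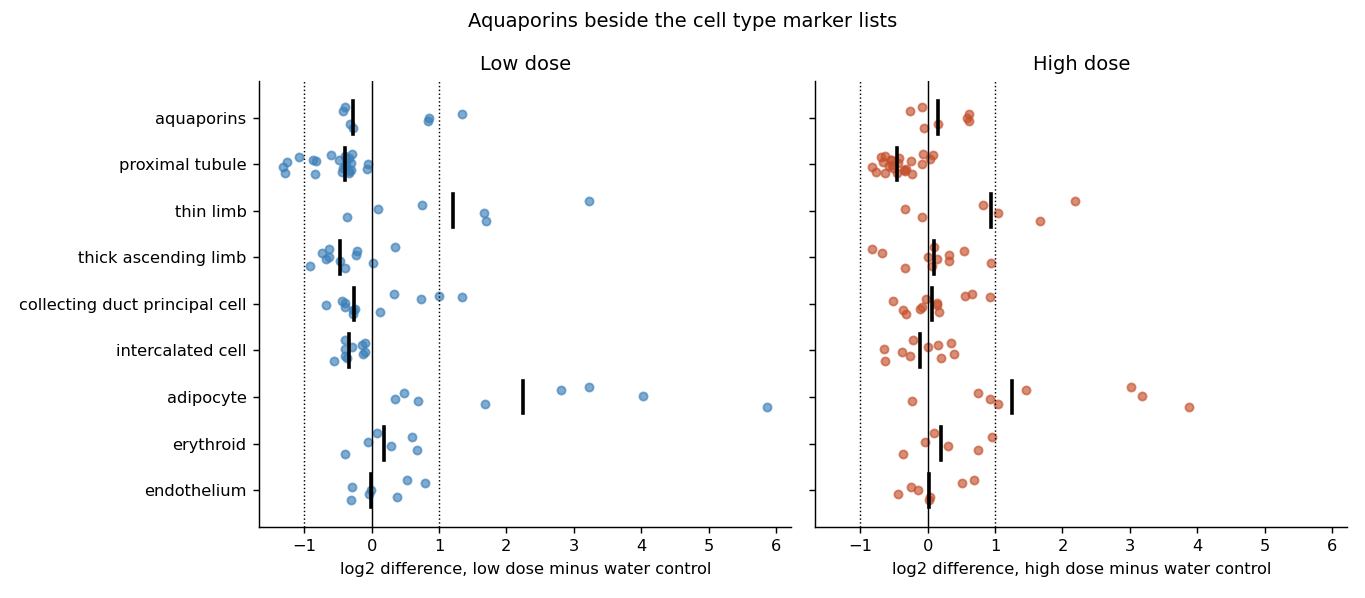
Log2 difference from control of each measured gene of the aquaporin group and of 8 cell type marker lists, at the low and the high dose. Points are genes, black bars list medians and dotted lines 2-fold. The upper 3 aquaporin points at each dose, Aqp2, Aqp3 and Aqp4, lie above the principal cell median (-0.26 and 0.06). They lie within the range of the principal cell markers, which reach 1.34 and 0.93.

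The genes closest to Aqp2 over the 3 arrays were Fam3d, Eif4ebp1, Cd300lg, Ctla2a and Apcdd1. Likeness was the Euclidean distance between the 3 log2 values of 2 genes, each centred on its own mean, over 9871 genes, and it ranged from 0.03 to 0.07 for these 5. Eif4ebp1, a repressor of translation initiation, read 355 with water, 914 at 10 mg and 533 at 20 mg. Fam3d and Cd300lg were dim, which limits their differences. Fam3d read 28.6, 74.2 and 44.4 and Cd300lg 33.2, 81.0 and 50.8 in the same order of groups. With 3 values per gene many genes can lie this close. Aqp3 and Aqp4 ranked 209 and 236 by the same measure, at distances of 0.39 and 0.42, and the 4 other measured aquaporins ranked between 7129 and 8553.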

How the data were processed

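Kidney RNA of 3 groups of rats was measured on 1 Agilent rat array per group, each from a pool of 4 animals, and groups were taken from the sample titles. The deposited scanner files give spot intensity at 532 nm, read with GenePix Pro 6.1.0.4 and with 1 background value per array subtracted (39 or 40), per the file headers. Agilent Feature Extraction is named in the submitters' processing notes, but its columns are absent from these files, so GenePix's net mean and its signal-to-noise ratio, deposited as a score, were used. A second table deposited by the authors holds log2 values, each column with a median of 4.77, by an unstated scaling. Saturated pixels are deposited as a percent of each spot.

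Control spots, bright spots the software did not find (3 or 4 per array) and spots with over 1.5-fold between mean and median pixel (132 with water, 128 at 10 mg, 69 at 20 mg) were left out. A probe's spots were averaged, scaled to an equal 75th percentile (factors 1.14, 0.964 and 0.907), floored at 1 and log2 transformed. Of the probes, 18355 were named by accession, 2758 by current symbol, 604 by gene ID, 422 by synonym and 1183 by the file's symbol, through RefSeq's table for GRCr8. The probe above background on most arrays, then the brightest, stood for a gene, and genes with placeholder symbols were left out. All aquaporins were named, and of each other list up to 4 members with the largest difference, plus the 5 genes nearest to an aquaporin past 2-fold. Members and lists were chosen with earlier results of these data known, and the limits on non-uniform and unfound spots follow such results. The technical error of a 1-spot probe is the SD of position-matched spot differences within 10-spot probes whose mean lay within 1 log2 unit. The functions were tested on simulated data. Alternatives were normexp (limma 3.58.1, offset 50), quantile normalization, the authors' table, non-uniform spots kept, median pixels, the mean over a gene's probes, no filter on dim probes, and, added after seeing the data, removal of the local median within 10 spots of each spot. Python 3.11.15, numpy 2.4.6 and pandas 2.3.3 were used.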

Additional observations from a re-analysis of the deposited data

How the results depend on the processing

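The number of aquaporins past 2-fold was the same under all 8 alternatives in each comparison: 1 higher and 0 lower at the low dose, and 0 in each direction at the high dose and between the doses. Aqp2 at the low dose ranged from 1.18, with the local position correction, to 1.45, with the authors' deposited table, and at the high dose from 0.49 to 0.75 under the same 2 settings. Aqp3 ranged from 0.80 to 0.90 and from 0.57 to 0.70, and Aqp4 from 0.69 to 0.86 and from 0.53 to 0.75. Of 22 differences, 20 kept their sign throughout. The exceptions were the high-dose differences of Aqp6 (-0.06 to 0.22) and Aqp7 (-0.06 to 0.02). Between the doses Aqp3 and Aqp4 shrank to -0.10 and -0.11, and Aqp8 was -0.51 against -0.20, with the authors' deposited table, and the cause was not tested. Background genes passing at the low dose numbered 136 higher and 25 lower under normexp, against 248 and 70, and at the high dose 37 and 4, against 83 and 17. Between the doses they numbered 18 and 71 under normexp, against 47 and 161. At the high dose 32 were lower with the authors' deposited table, against 17. The thin limb median was 0.86 at the low dose and 0.63 at the high dose under normexp. The osmolyte and urea list's low-dose median, 0.51, was 0.00 with the local position correction. No paired analysis was possible because each group has 1 array. Aqp6 and Aqp8 lie near background, which limits their differences.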

Other observations

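Genes of glycerol handling, a solute that AQP3 and AQP7 pass, had median differences of 0.20 (10 mg) and -0.03 (20 mg) over 9 measured members. Agpat2, an acyltransferase of triglyceride synthesis, was at 1.28 at the low dose and 1.01 at the high dose, and Dgat2, which makes triglyceride, at 1.02 and 0.62. Pnpla2, the first lipase of triglyceride breakdown, was at 0.69 and -0.23, and lipoprotein lipase, Lpl, on 10 spots, at 0.34 and 0.92. At the low dose 2 of the 9 were at least 2-fold higher, and at the high dose 1, against 2.49% and 0.82% of all genes measured on both arrays.

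Urothelium also holds AQP3. Of its 9 listed markers 3 were measured on all arrays. Upk1a, a uroplakin of the urothelial plaque, read 87 with water, 374 at 10 mg and 253 at 20 mg, log2 differences of 2.10 and 1.54. Upk1b was at -0.05 and 0.17 and Tp63 at -0.12 and -0.37. The median of this list depended on the setting. It was -0.05 at the low dose and 0.17 at the high dose, and -0.06 and 0.01 under normexp. Averaging all probes of each gene moved it to 2.10 and 1.54. By their representative probes Upk2 and Upk3a were above background on some arrays but not on all, so they were left out of the 3. The keratins Krt5, Krt13 and Krt20 were not above background on any array. The part of urothelium in the Aqp3 values was not tested.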
